A study of Mus musculus with 12 samples.

Results

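The interleukin (IL)-23, IL-12 and IL-22 axis was followed in periocular skin through 9 genes, chosen by symbol as the cytokine chains *Il23a*, *Il12a*, *Il12b* and *Il22* and the receptor chains *Il23r*, *Il12rb1*, *Il12rb2*, *Il22ra1* and *Il22ra2*. Of these, 8 were rows of the count table, which held 21247 genes, and *Il22* was not analysed here. IL-23 and IL-12 are heterodimers released mainly by dendritic cells and macrophages, and they share the chain encoded by *Il12b*. IL-23 pairs it with the product of *Il23a* and sustains IL-17- and IL-22-producing lymphocytes, whereas IL-12 pairs it with the product of *Il12a* and drives type 1, interferon-gamma-producing lymphocytes. Their receptors likewise share the chain encoded by *Il12rb1*, which joins the product of *Il23r* for IL-23 and that of *Il12rb2* for IL-12. IL-22 acts on epithelial cells through *Il22ra1* and its partner *Il10rb*, and *Il22ra2* encodes a soluble decoy that binds IL-22. Toll-like receptor signaling through MyD88 is a known inducer of *Il12b* and *Il23a* in myeloid cells.

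The 4 ft/ft libraries came from 6-week-old BALB/c mice homozygous for the flaky tail allele of filaggrin, a point mutation that abolishes its function, in a line from which the methods state that the matted (ma) mutation had been removed. The 4 ft/ftMyD88-/- libraries came from mice of the same age and background that carried the same filaggrin mutation and were in addition MyD88-deficient. No treatment was given and filaggrin deficiency was common to every library compared. Wildtype skin was not analysed here. Whole biopsies were sequenced, so that fewer cells of a type and less RNA per cell cannot be told apart.

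Total counts lay between 15802957 and 29255129 per library, and levels are given as CPM, counts divided by the library size after scaling with edgeR's TMM method. *Myd88* was at 25.4 to 36.5 CPM in ft/ft and 32.2 to 48.8 CPM in ft/ftMyD88-/-, so the gene count does not show the deficiency that the labels give. *Flg* was at 48.3 to 199 CPM in ft/ft and 191 to 273 CPM in ft/ftMyD88-/-. The labels give female mice, yet *Xist* totalled 1 count over the ft/ft libraries and was at 34.6 to 66.8 CPM in ft/ftMyD88-/-, and the Y-linked *Ddx3y* was at 54.2 to 73.2 CPM in ft/ft and at most 0.482 CPM in ft/ftMyD88-/-. Genotype and sex therefore cannot be told apart in any difference below. Skin was well represented, with 8 basal keratinocyte markers summing to 14544 to 17751 CPM in ft/ft and 10119 to 12356 CPM in ft/ftMyD88-/-, of which 6 were called lower, and 8 differentiated keratinocyte markers summing to 18439.5 to 23653 and 12734 to 15918 CPM, of which 4 were called lower. Skeletal muscle markers were present as well, and the 10 of them summed to 8945 to 12030 CPM in ft/ft and 3356 to 6459 CPM in ft/ftMyD88-/-, with 9 called lower.

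The abundance of the axis in ft/ft skin was ordered by dividing CPM by the exon length of each gene in kilobases (GENCODE M21). This assumes counts that grow with transcript length, as for the library kit in the methods. The sample labels name a different protocol, for which that was not tested. *Il22ra1* was highest, at 8.98 ± 1.61 CPM per kilobase (SD, n = 4), followed by *Il22ra2* at 3.01 ± 0.555 and *Il12rb1* at 0.953 ± 0.21, and the libraries of these 3 genes did not overlap with each other. *Il23a* (0.258 ± 0.0753), *Il12rb2* (0.221 ± 0.0848) and *Il23r* (0.212 ± 0.0706) came next with overlapping libraries. *Il12b* (0.068 ± 0.0636) and *Il12a* (0.0579 ± 0.0452) were lowest and overlapped as well, and *Il12b* also reached into the ranges of *Il12rb2* and *Il23r*. The receptor chain of epithelial cells thus had the highest level per kilobase of the axis. In ft/ftMyD88-/- skin *Il22ra1* was at 7.46 ± 0.736, *Il22ra2* at 1.89 ± 0.618 and *Il12rb1* at 1.19 ± 0.17 CPM per kilobase. *Il23a*, at 0.827 ± 0.323, now overlapped with *Il12rb1* above it and with *Il23r* below it, and *Il23r*, at 0.58 ± 0.178, lay clear of *Il12rb2*, at 0.229 ± 0.0609, which overlapped with *Il12b*. *Il12b* and *Il12a* stayed lowest, at 0.187 ± 0.108 and 0.0787 ± 0.0671 CPM per kilobase.

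The comparison sets ft/ftMyD88-/- against ft/ft skin, both on a filaggrin-deficient background. The paper reports periocular inflammation in all ft/ftMyD88-/- mice by the age sampled, and none visible in ft/ft mice. Loss of MyD88, sex and inflammation therefore cannot be told apart in these libraries. Both components specific to IL-23, the cytokine chain *Il23a* and the receptor chain *Il23r*, were higher in ft/ftMyD88-/- skin, by 3.15-fold and 2.72-fold. The chains that IL-23 shares with IL-12, the chains specific to IL-12 and the IL-22 receptors did not pass the test. All 8 genes reached the minimum of 10 counts summed over the libraries and were tested among 20454 genes, and 2 were called higher and 0 lower at an edgeR adjusted p under 0.05. Among all genes tested, 10.9% were called higher, 12.3% lower and 23.3% in either direction. The share of axis genes called was thus close to that of all genes. The median log2 fold change was 0.33 over the 8 genes and 0.01 over all genes tested. At unadjusted p under 0.05, *Il22ra2* was the single axis gene that was lower, and DESeq2, which called 28.6% of the genes it adjusted, called it lower too.

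**Figure D1:**
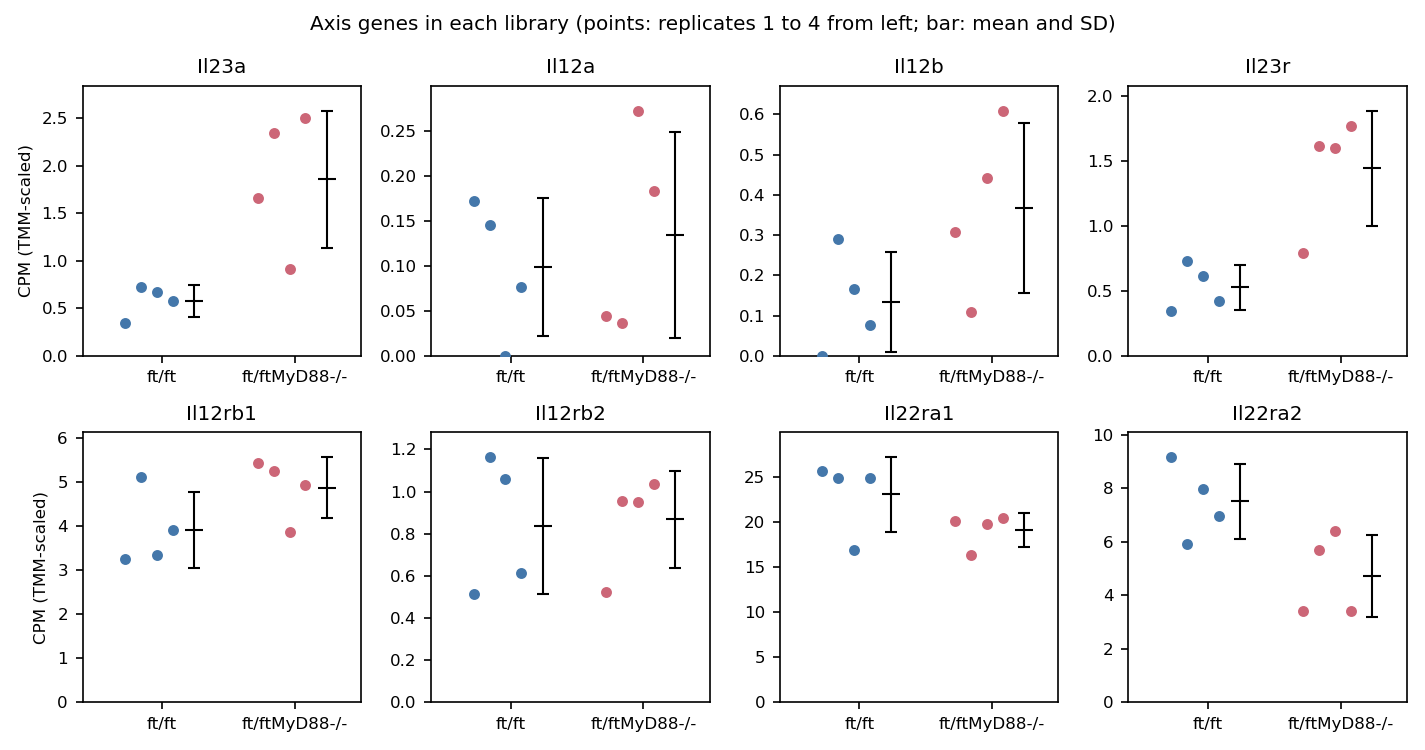
TMM-scaled CPM of the 8 axis genes (y axes, from 0, differing between panels) in the 4 ft/ft libraries (blue) and the 4 ft/ftMyD88-/- libraries (red), with replicates 1 to 4 from left to right and black bars for the mean and SD. Only for *Il23a* and *Il23r* do all red points lie above all blue points.

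*Il23a* (GRCm38.p6 chromosome 10, 128296140 to 128298084, minus strand) encodes the chain that distinguishes IL-23 from IL-12. It was at 0.343, 0.727, 0.669 and 0.575 CPM in ft/ft replicates 1 to 4, from 8, 20, 12 and 15 counts. In ft/ftMyD88-/- replicates 1 to 4 it was at 1.67, 2.35, 0.919 and 2.50 CPM, from 38, 64, 27 and 41 counts. Every ft/ftMyD88-/- library lay above every ft/ft library, and replicate 3 was the lowest of its group, close to the ft/ft range. The means were 0.579 ± 0.169 CPM in ft/ft and 1.86 ± 0.725 CPM in ft/ftMyD88-/- (SD, n = 4 each). On the log2 scale this was 1.66 ± 0.353 (SE; adjusted p = 0.00579 by edgeR; two-sided exact permutation test, p = 0.0286). With 4 libraries a group that test cannot give a lower p. The call held in all 15 alternative fits, with an edgeR, DESeq2 or limma adjusted p of at most 0.0209. The paper also measured *Il23a* by qPCR in periocular skin, normalized to *Actb*, and reports no significant difference for it. The difference given here thus rests on the sequencing counts alone.

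*Il12b* (chromosome 11, 44400063 to 44414677, plus strand), the chain common to IL-12 and IL-23, was near the limit of detection. Its counts were 0, 8, 3 and 2 in ft/ft and 7, 3, 13 and 10 in ft/ftMyD88-/-, or 0.134 ± 0.125 and 0.367 ± 0.211 CPM (SD, n = 4 each). The libraries overlapped, because ft/ft replicates 2 and 3 lay above ft/ftMyD88-/- replicate 2. The log2 difference of 1.35 ± 0.72 (SE) did not pass (adjusted p = 0.196 by edgeR), and leaving out ft/ft replicate 1 gave 0.95, and leaving out replicate 2 of that group 2.16. A count of 0 allows a level of up to 3 counts, equal to 0.102 to 0.183 CPM here, which lies within the range of the *Il12b* values.

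*Il12a* (chromosome 3, 68690644 to 68698550, plus strand) gives IL-12 its own chain. Its counts were 4, 4, 0 and 2 in ft/ft and 1, 1, 8 and 3 in ft/ftMyD88-/-, which is 0.0984 ± 0.0768 and 0.134 ± 0.114 CPM (SD, n = 4 each), with overlapping libraries. The log2 difference was 0.36 ± 0.811 (SE; adjusted p = 0.785 by edgeR). Its sign rested on ft/ftMyD88-/- replicate 3, the library with 8 counts, and was negative without it, at -0.38 (adjusted p = 0.807 by edgeR). No direction is read from these counts. The downstream cytokine of the IL-12 arm, *Ifng*, had 0 counts in every ft/ft library and 1, 1, 1 and 0 in ft/ftMyD88-/-, too few to be tested.

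*Il23r* (chromosome 6, 67422932 to 67491855, minus strand) encodes the receptor chain through which IL-23 reaches gamma delta T17 cells, Th17 cells and group 3 innate lymphoid cells. It was at 0.343, 0.727, 0.614 and 0.422 CPM in ft/ft, from 8, 20, 11 and 11 counts. In ft/ftMyD88-/- it was at 0.789, 1.62, 1.6 and 1.77 CPM, from 18, 44, 47 and 29 counts. The groups did not overlap, although ft/ftMyD88-/- replicate 1 was only slightly above the highest ft/ft library, replicate 2. The means were 0.526 ± 0.176 and 1.44 ± 0.443 CPM (SD, n = 4 each). The log2 difference was 1.44 ± 0.334 (SE; adjusted p = 0.00886 by edgeR; two-sided exact permutation test, p = 0.0286). The call held in all 15 alternative fits, with an adjusted p of at most 0.0313. Non-overlap was found for 2 of the 8 axis genes, *Il23a* and *Il23r*, and for 26.7% of all genes tested. The library that was low for *Il23r*, replicate 1, was not the library that was low for *Il23a*, replicate 3.

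*Il12rb1* (chromosome 8, 70808360 to 70823542, plus strand), the chain common to both receptors, was at 3.26, 5.13, 3.35 and 3.91 CPM in ft/ft and 5.43, 5.25, 3.88 and 4.94 CPM in ft/ftMyD88-/-. The groups overlapped, and the log2 difference was 0.31 ± 0.187 (SE; adjusted p = 0.255 by edgeR). *Il12rb2* (chromosome 6, 67285986 to 67376293, minus strand), which completes the IL-12 receptor, was at 0.514, 1.16, 1.06 and 0.613 CPM in ft/ft and 0.526, 0.955, 0.953 and 1.04 CPM in ft/ftMyD88-/-. Its log2 difference was 0.05 ± 0.336 (SE; adjusted p = 0.928 by edgeR), it turned negative in 4 of the 8 fits without a library, and the lowest library of each group was replicate 1. *Il12rb2* shares 1519 exon bases with *Serbp1* on the opposite strand (GENCODE M21), and the library kit described does not mark strand. Reads from that stretch may come from either gene. The *Il12rb2* counts may therefore include *Serbp1* reads, also in the ratio given next.

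**Figure D2:**
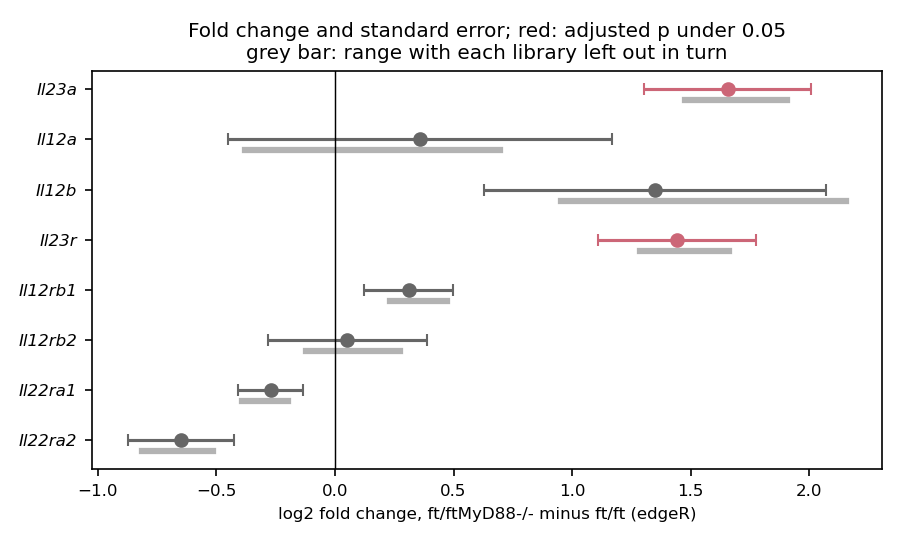
edgeR log2 fold change of each axis gene in ft/ftMyD88-/- against ft/ft (x axis), with bars for the standard error and a grey bar for the range when each library is left out in turn. *Il23a* at 1.66 and *Il23r* at 1.44 are marked red for an adjusted p under 0.05, and the ranges of *Il12a* and *Il12rb2* cross 0.

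The genes of the receptor chains specific to IL-23 and to IL-12 are neighbors on chromosome 6, on the same strand and 46.6 kilobases apart. The ratio of *Il23r* to *Il12rb2* CPM was 0.667, 0.625, 0.579 and 0.688 in ft/ft and 1.5, 1.69, 1.68 and 1.71 in ft/ftMyD88-/-. Values within each group were close together, and the groups did not overlap. The *Il12rb2* counts behind them were 12, 32, 19 and 16 in ft/ft and 12, 26, 28 and 17 in ft/ftMyD88-/-. Those of *Il23r*, given above, were as low. Counting error at such counts is wider than the spread within either group, so the closeness is not read as precision. The log2 ratio was higher by 1.23 in ft/ftMyD88-/- (two-sided exact permutation test, p = 0.0286). This was 1 of 4 chain ratios compared, which were chosen after values had been seen, and over the 4 the Benjamini-Hochberg adjusted p was 0.0762, which did not pass 0.05. Leaving out any library kept the difference between 1.19 and 1.33. Relative to the common chain *Il12rb1*, *Il23r* was at 0.105, 0.142, 0.183 and 0.108 in ft/ft and 0.145, 0.308, 0.412 and 0.358 in ft/ftMyD88-/-, where replicate 1 overlapped with ft/ft (log2 difference 0.99, exact permutation test, p = 0.0571, adjusted p = 0.0762).

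**Figure D3:**
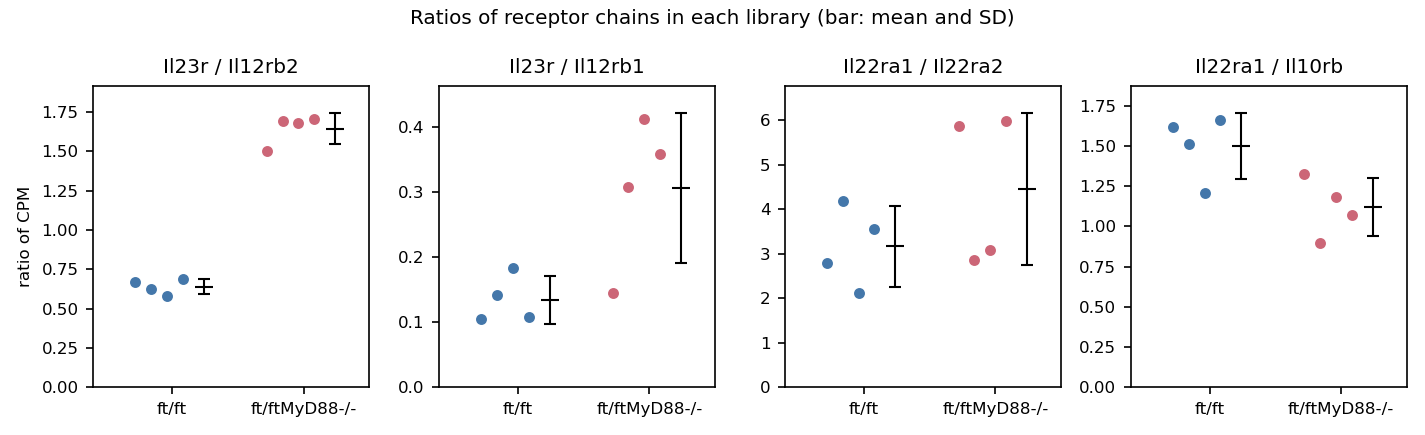
Ratios of CPM between receptor chains (y axes, from 0) in each ft/ft (blue) and ft/ftMyD88-/- (red) library, with black bars for the mean and SD. The ratio of *Il23r* to *Il12rb2* is 0.64 ± 0.048 in ft/ft and 1.64 ± 0.0968 in ft/ftMyD88-/-, and the other 3 ratios overlap between the groups.

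Because 1 of the 2 neighboring receptor genes was called and the other was not, the bases just before their starts are shown from the RefSeq promoter table (GRCm38.p6), which matched 6 of the 9 axis genes. Each is written 5′ to 3′ on the minus strand, the strand of the gene, and ends before the outermost annotated start. For *Il12rb2* the table uses a start inside the annotated gene, so only the first 145 of its 250 bases are shown. They cover chr6:67491856-67492105 for *Il23r* and chr6:67376294-67376438 for *Il12rb2*.
Il23r: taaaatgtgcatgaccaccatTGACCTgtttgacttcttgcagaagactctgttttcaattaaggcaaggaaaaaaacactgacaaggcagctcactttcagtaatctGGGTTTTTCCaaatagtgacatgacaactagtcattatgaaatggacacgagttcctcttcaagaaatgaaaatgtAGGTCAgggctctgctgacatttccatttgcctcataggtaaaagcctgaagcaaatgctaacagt
Il12rb2: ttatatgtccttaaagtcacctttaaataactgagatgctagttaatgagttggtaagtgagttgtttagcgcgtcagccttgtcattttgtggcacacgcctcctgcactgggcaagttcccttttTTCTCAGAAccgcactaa
Capitals mark matches to 4 motifs searched on both strands, namely a kappaB form (the 10-base match), the STAT element (TTCNNNGAA), the ROR half-site (AGGTCA) and the AP-1 element (TGANTCA), none of which overlapped another. *Il23r* held the kappaB form 142 bases and the ROR half-site 229 and 66 bases before its start, and *Il12rb2* held the STAT element 18 bases before its outermost annotated start, which is 123 bases before the start used in the table. Over the 250 bases before the start of all 32851 RefSeq promoters, the kappaB form was present in 1.41%, the STAT element in 7.02%, the ROR half-site in 14% and the AP-1 element in 6.75%. These matches describe the letters only.

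Many lymphocyte markers were called higher in ft/ftMyD88-/- skin, as *Il23r* was. Of 10 T cell markers, 9 were called higher, and their sum was 25.2 to 32.4 CPM in ft/ft and 39.9 to 56.6 CPM in ft/ftMyD88-/-. Of 10 gamma delta T17 markers, 9 were in the table and 6 were called higher, with sums of 34 to 41.8 and 63.0 to 98.5 CPM. *Sox13* and *Zbtb16*, which other skin cells can express, made up 68.3 to 79.9% of that sum. The constant genes of the gamma delta T cell receptor (*Trdc*, *Tcrg-C1*, *Tcrg-C2* and *Tcrg-C4*) were therefore summed as well, at 4.95 to 6.41 CPM in ft/ft and 10.4 to 12.3 CPM in ft/ftMyD88-/-. Each of these 4 was called higher by itself. This second sum also left out *Blk* (called higher), *Cd163l1* (not called) and *Trdv4*. *Trdv4* went the other way and was not called, at 0.928 ± 0.171 and 0.662 ± 0.138 CPM (SD, n = 4 each). Per 1000 CPM of the 4 constant genes, *Il23r* was at 67.2, 141, 95.7 and 85.3 CPM in ft/ft and at 75.6, 131, 147 and 146 CPM in ft/ftMyD88-/-, so the groups overlapped. Per 1000 CPM of the full gamma delta T17 list it was at 13.4 ± 3.65 and 17.7 ± 7.59, and per 1000 CPM of T cell markers at 18.9 ± 7.22 and 30.0 ± 7.03 (SD, n = 4 each), again with overlap. Of 8 natural killer cell markers, 6 were in the table, 4 were tested and 2 were called higher, and all 6 together summed to at most 2.35 CPM in any library, with *Klrb1c*, *Klre1* and *Klra7* at 0 counts in at least 1 library. The part of these markers in the difference in *Il23r* was not tested.

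IL-23 is known to be released by myeloid cells. Of 10 dendritic cell markers, 4 were called higher and 1 lower, with overlapping sums of 86.7 to 103 CPM in ft/ft and 95.1 to 134 CPM in ft/ftMyD88-/-. Of 10 macrophage and monocyte markers, 3 were called higher, 0 lower and 7 not called, with sums of 534 to 678 and 739 to 1038 CPM. *Lyz2*, 1 of those called higher, was the largest part of these sums, at 243 to 273 and 401 to 647 CPM. The separation of the sums is therefore not read as more macrophages. Per 1000 CPM of dendritic cell markers, *Il23a* was at 3.96, 7.88, 6.61 and 5.58 CPM in ft/ft and at 17.5, 20.3, 6.83 and 20 CPM in ft/ftMyD88-/-. Per 1000 CPM of macrophage markers it was at 0.642, 1.07, 1.08 and 0.867 in ft/ft and 2.25, 2.51, 0.93 and 2.41 in ft/ftMyD88-/-. On both scales ft/ftMyD88-/- replicate 3 lay within the ft/ft range, and the other 3 libraries of its group lay above all ft/ft libraries. On the macrophage scale the place of replicate 3 leans on *Lyz2*, which was at 577 CPM in that library. Values without *Lyz2* are not given here. The part of myeloid markers in the difference in *Il23a* was not tested.

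**Figure D4:**
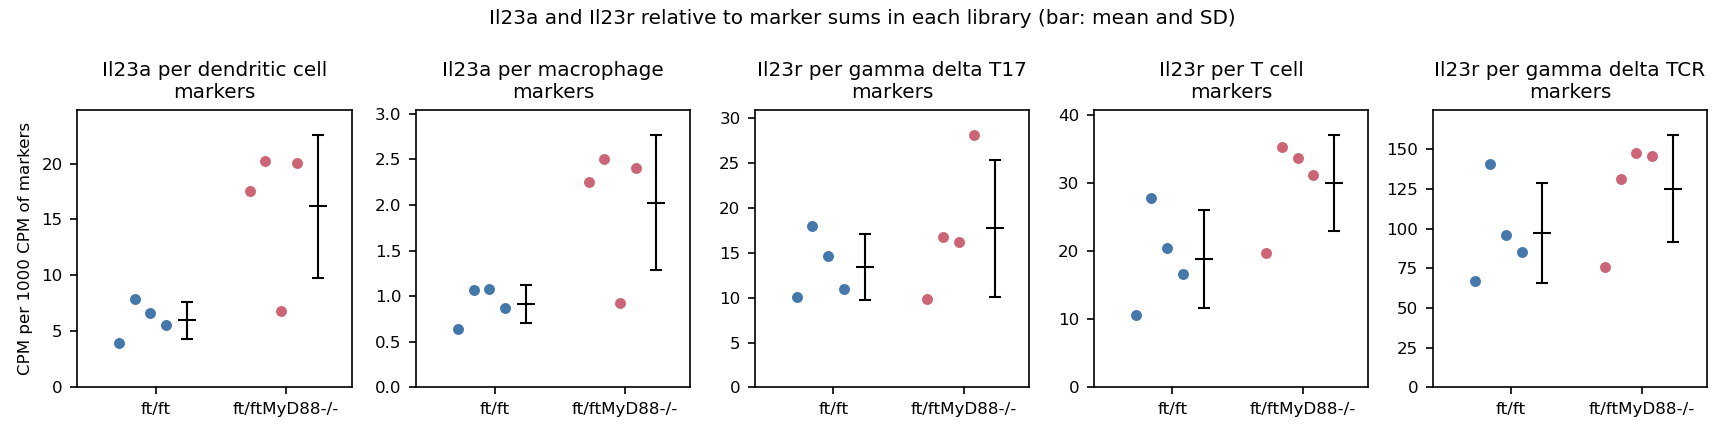
*Il23a* and *Il23r* in CPM per 1000 CPM of summed marker genes (y axes, from 0) in each ft/ft (blue) and ft/ftMyD88-/- (red) library, with black bars for the mean and SD. All 5 panels overlap between the groups, with replicate 3 of ft/ftMyD88-/- inside the ft/ft range for *Il23a* and replicate 1 below at least 2 ft/ft libraries for *Il23r*. The macrophage sum is made up in large part of *Lyz2*.

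*Il22ra1* (chromosome 4, 135728159 to 135755383, plus strand), the chain by which keratinocytes sense IL-22, was at 25.7, 24.9, 16.9 and 24.8 CPM in ft/ft and 20.1, 16.4, 19.8 and 20.4 CPM in ft/ftMyD88-/-. Of the ft/ft libraries, 3 lay above all ft/ftMyD88-/- libraries and replicate 3 lay among them. The log2 difference was -0.27 ± 0.137 (SE; adjusted p = 0.174 by edgeR). The call turned on ft/ft replicate 3, without which the log2 difference was -0.39 (adjusted p = 0.0326 by edgeR). Keratinocyte markers were lower in ft/ftMyD88-/- as given above, and their part in the values of *Il22ra1* was not tested. Its partner *Il10rb* was at 15.3 ± 1.07 CPM in ft/ft and 17.3 ± 1.74 CPM in ft/ftMyD88-/- (SD, n = 4 each), with a log2 difference of 0.17 ± 0.108 (SE; adjusted p = 0.278 by edgeR, 0.0287 with library size alone). The ratio of *Il22ra1* to *Il10rb* was 1.5 ± 0.203 in ft/ft and 1.12 ± 0.182 in ft/ftMyD88-/- with overlapping libraries (log2 difference -0.42, exact permutation test, p = 0.0571, adjusted p = 0.0762).

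*Il22ra2* (chromosome 10, 19622028 to 19634681, plus strand), the soluble decoy of IL-22, was at 9.17, 5.93, 7.98 and 6.98 CPM in ft/ft and 3.42, 5.70, 6.40 and 3.41 CPM in ft/ftMyD88-/-. The overlap came from ft/ft replicate 2, which lay below ft/ftMyD88-/- replicate 3. The log2 difference was -0.65 ± 0.224 (SE), with an edgeR adjusted p of 0.0533, just outside the threshold. DESeq2 gave an adjusted p of 0.0262, and without ft/ftMyD88-/- replicate 3 or ft/ft replicate 2 the edgeR adjusted p was 0.0233 or 0.0423. The ratio of receptor to decoy, *Il22ra1* to *Il22ra2*, was 2.80, 4.20, 2.12 and 3.56 in ft/ft and 5.87, 2.87, 3.10 and 5.98 in ft/ftMyD88-/-, with overlap (log2 difference 0.44, exact permutation test, p = 0.257, adjusted p = 0.257).

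Genes of related cytokines and receptors moved in both directions. Of 13, all tested, 2 were called higher and 4 lower, with a median log2 fold change of 0.22. The higher genes were *Il27ra*, the receptor of the IL-12 family cytokine IL-27 (2.05 ± 0.341 to 4.07 ± 0.407 CPM, log2 fold change 1.00, edgeR adjusted p = 0.00235), and *Il10ra*, the IL-10 receptor (4.96 ± 0.954 to 7.96 ± 0.996 CPM, log2 fold change 0.68, edgeR adjusted p = 0.0121). The lower genes were *Il20ra* (log2 fold change -0.57) and *Il20rb* (-0.37), which form a receptor for IL-19, IL-20 and IL-24, *Ifnlr1* of the interferon-lambda receptor (-0.45), and *Il6st*, the signaling chain shared by the IL-6 and IL-27 receptors (-0.35). Their edgeR adjusted p-values were 0.0303, 0.0435, 0.0176 and 0.0357, and the calls of *Il6st*, *Il20ra* and *Il20rb* were each lost in 5 of the 8 fits without a library. None of the 4 was called with library size alone in place of TMM, which raised the median of all genes from 0.01 to 0.19.

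These receptors signal through JAK kinases and STAT proteins, which SOCS proteins inhibit. Of 8 such genes, all tested, 2 were called higher and 1 lower. *Socs1* rose from 5.02 ± 0.903 to 8.63 ± 0.987 CPM (log2 fold change 0.79, edgeR adjusted p = 0.00396) and *Socs3* from 27.9 ± 4.28 to 40.8 ± 6.54 CPM (log2 fold change 0.55, edgeR adjusted p = 0.0123). *Jak1* was lower (log2 fold change -0.32, edgeR adjusted p = 0.0261), a call lost with library size alone and in 5 of the 8 fits without a library. *Stat4*, the main transducer of IL-12, had 2 to 4 counts in ft/ft and 2 to 15 in ft/ftMyD88-/- and was not called.

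Among 9 transcription factors known to regulate the IL-12 and IL-23 genes, all tested, 2 were called higher and 1 lower. *Irf8*, which drives IL-12 expression and dendritic cell development, rose from 15.1 ± 1.95 to 27.6 ± 3.58 CPM (log2 fold change 0.87, edgeR adjusted p = 7.04e-04), and *Batf3*, required for conventional type 1 dendritic cells, from 0.897 ± 0.0414 to 1.93 ± 0.403 CPM (log2 fold change 1.09, edgeR adjusted p = 0.0051). *Rela*, an NF-kappa B subunit, was lower (73.5 ± 4.81 to 58.8 ± 2.19 CPM, log2 fold change -0.32, edgeR adjusted p = 0.0122), except with library size alone, where it was not called.

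The list of type 17 and type 22 lymphocyte genes was split. Of 12 genes, 11 were tested, 4 were called higher and 4 lower. The higher genes were *Il17a*, *Il17f*, *Batf* and *Il1r1*. *Batf*, a factor of Th17 differentiation, rose from 1.70 ± 0.24 to 5 ± 1.18 CPM (log2 fold change 1.55, edgeR adjusted p = 4.48e-04), and *Il1r1*, the IL-1 receptor, from 35.2 ± 3.0 to 47.5 ± 6.41 CPM (log2 fold change 0.43, edgeR adjusted p = 0.0121). Among the lower genes were *Rora* (220 ± 23.3 to 150 ± 18 CPM, log2 fold change -0.55, edgeR adjusted p = 0.0041), *Ahr* (57.6 ± 3.27 to 43.9 ± 6.57 CPM, log2 fold change -0.39, edgeR adjusted p = 0.0197) and *Il17re* (24.8 ± 1.68 to 15.6 ± 0.375 CPM, log2 fold change -0.66, edgeR adjusted p = 5.37e-04). These 3 genes are known from skin epithelium as well as from lymphocytes. Library size alone left *Ahr* uncalled, and it also lost its call without ft/ft replicate 3 or without ft/ftMyD88-/- replicate 1 or 4.

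For the IL-12 and type 1 response, of 13 genes, 12 were tested, 4 were called higher and 1 lower. The granzyme genes *Gzma* (0.295 ± 0.115 to 1.08 ± 0.435 CPM, log2 fold change 1.89, edgeR adjusted p = 0.00706) and *Gzmb* (0.149 ± 0.101 to 0.652 ± 0.338 CPM, log2 fold change 2.09, edgeR adjusted p = 0.0282) were higher, as was the IL-18 receptor chain *Il18rap* (log2 fold change 1.05, edgeR adjusted p = 0.0191). *Prf1*, encoding perforin, went the other way, from 2.46 ± 0.68 to 1.02 ± 0.491 CPM (log2 fold change -1.23, edgeR adjusted p = 0.0173). *Tbx21*, the type 1 master regulator, was at 0.178 ± 0.106 and 0.293 ± 0.0753 CPM and was not called (edgeR adjusted p = 0.341). Several calls did not hold in every fit without a library. *Gzmb* lost its call without ft/ft replicate 4 or ft/ftMyD88-/- replicate 2 or 4, *Il18rap* without ft/ft replicate 1 or 4 or ft/ftMyD88-/- replicate 2, and *Prf1* without replicate 4 of either group. Over these fits the log2 fold change ran from 1.69 to 2.35 for *Gzmb*, 0.86 to 1.21 for *Il18rap* and -1.63 to -1.05 for *Prf1*.

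Among 13 epithelial genes that IL-22 is known to induce, 12 were tested, 2 were called higher, *Reg3g* and *Lcn2*, and 1 lower, *Fut2*. The median log2 fold change was 1.11. *Lcn2*, encoding the siderophore-binding lipocalin 2, rose from 18.4 ± 11.4 to 70.5 ± 27.7 CPM (log2 fold change 1.93, edgeR adjusted p = 0.0431), a call lost in 6 of the 8 fits without a library. *S100a7a* was at 12.3 ± 2.74 and 37.4 ± 24.0 CPM (edgeR adjusted p = 0.0668), with groups that did not overlap. Non-overlap was found for 8 of the 12 tested genes of this list, called or not, and for 26.7% of all genes tested. *Fut2*, a fucosyltransferase, fell from 58.9 ± 5.49 to 33.0 ± 4.52 CPM (log2 fold change -0.83, edgeR adjusted p = 4.43e-04). The number called higher was 5 without ft/ft replicate 2, 4 without ft/ftMyD88-/- replicate 3, 1 without replicate 4 of that group and 0 without ft/ft replicate 1, 3 or 4.

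**Figure D5:**
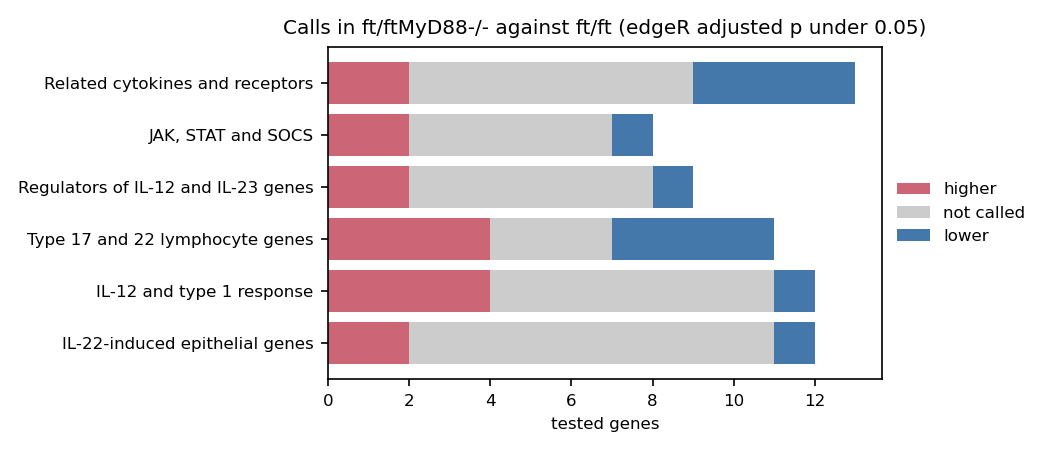
Number of tested genes (x axis) in each of 6 lists around the axis that were called higher (red), lower (blue) or not called (grey) in ft/ftMyD88-/- against ft/ft. The type 17 and 22 list has 4 higher and 4 lower, and the list of related cytokines and receptors has 2 higher and 4 lower.

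Genes whose profile over the 8 libraries was nearest to an axis gene were named by the root mean square difference of mean-centered log2 CPM, among 13505 genes with a mean of at least 50 counts. *Il23r* was nearest to *Cd300d* (0.15), *Clec4n* (0.248) and *Aif1* (0.257). *Il23a* was nearest to *Cyp7b1* (0.295), *Batf* (0.295) and *Cdhr1* (0.298). *Il22ra2* was nearest to *Ackr4* (0.134), RP23-8J15.7 (0.142) and *Cyp4b1* (0.145). *Il22ra1* was nearest to *Hbp1*, *Fbxo45* and *Slamf9* (0.103 to 0.106), *Il12rb1* to *Zfp7*, *Epha2* and *Plekha7* (0.0712 to 0.0775), and *Il12rb2* to *Mrvi1*, *Xylt1* and *Sh3rf3* (0.219 to 0.224).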

How the data were processed

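Periocular skin was profiled by RNA-seq in 4 ft/ft and 4 ft/ftMyD88-/- libraries. The authors deposited raw counts per gene without normalization, made according to the methods by aligning single-end reads of polyA-selected TruSeq libraries to GRCm38.p6 with HISAT and tophat2 before counting by HTSeq at default parameters. The sample labels instead name total RNA, Cell Ranger and a fixed-tissue protocol. The annotation release and strand setting are not given in the sources used here.

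Columns were matched to samples by the library name in the labels. The 20454 genes whose counts over the 8 libraries reached a sum of 10 entered the test with edgeR 4.0.16 in R 4.3.3 (TMM, glmQLFit with robust = TRUE, glmQLFTest, two-sided), with Benjamini-Hochberg adjustment over all of them and a threshold of 0.05. Standard errors were derived from the log2 fold change and F. P-values measure the spread between these samples, which the study describes as 4 mice per group. DESeq2 1.42.0 and limma 3.58.1 were alternatives, beside other scalings and filters, the replicate number as a block, an adjusted p under 0.01 and each library left out in turn. Replicates of a group differed by far more than counting noise (lowest chi-square divided by its degrees of freedom, 15.1). Floors cover counting error only. Coordinates are RefSeq, and exon lengths and overlaps GENCODE M21. The members, gene lists and tests were chosen with earlier results of these data known. Named are the axis genes, genes of the 6 pathway and 8 marker lists, 4 genes that check the labels and the 3 nearest profiles of each axis gene with a mean of at least 20 counts. Chain ratios and values per marker sum, the motifs and *Serbp1* were added after values had been seen. Some genes of the lists are counted but not reported here by name.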

Additional observations from a re-analysis of the deposited data

Results flagged for a closer look

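In groups of 4 libraries, a value was singled out where its gap to the nearest other library exceeded Dixon's 95% critical share of the group's range, which chance gives in about 1 in 20 groups. *Il22ra1* in ft/ft replicate 3 was low, at 16.9 CPM against 24.8 to 25.7 in the other ft/ft libraries, and in ft/ftMyD88-/- replicate 2 it was low as well, at 16.35 CPM against 19.8 to 20.4. *Il12rb2* was low in ft/ftMyD88-/- replicate 1, at 0.5259 CPM against 0.953 to 1.04. *Socs1* was high in ft/ft replicate 3, at 6.359 CPM against 4.44 to 4.76, and *Ahr* was low in ft/ft replicate 4, at 52.72 CPM against 58.9 to 59.7. *Il1r1* was high in ft/ftMyD88-/- replicate 2, at 57.03 CPM against 43.1 to 45.1. Among the genes that check the labels, *Xist* was at 0.04286 CPM (1 count) in ft/ft replicate 1 and at 0 in the others, and *Ddx3y* was at 0.482 CPM in ft/ftMyD88-/- replicate 1 against at most 0.0735 in the others. These 8 were found among 80 groups examined.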

How the results depend on the processing

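*Il23a* and *Il23r* were called higher in each of the 15 alternative fits and at an adjusted p under 0.01. The number of axis genes called lower was 0 in the reported fit, 1 with DESeq2 (*Il22ra2*, log2 fold change -0.64) and 0 to 1 with a library left out. With each library left out in turn, the log2 fold change ran from -0.38 to 0.69 for *Il12a*, -0.12 to 0.27 for *Il12rb2*, -0.39 to -0.20 for *Il22ra1* and -0.82 to -0.51 for *Il22ra2*. *Il12a* and *Il12b* could not be fitted under filterByExpr, which dropped them. Replicate numbers did not pair the libraries (correlation of same-numbered deviations -0.146 to 0.0251, highest with its own number in 1 of the 4 ft/ft libraries and 0 of the 4 others). The replicate block left 2 axis genes called higher and 0 lower, took the genes called from 4764 to 4039 and left *Il20rb* and *Lcn2* uncalled. An adjusted p under 0.01 took them to 2301. Library size alone turned 2239 higher and 2525 lower into 4638 and 1326, and took *Il22ra1* to -0.09 and *Il12rb1* to 0.49 on the log2 scale.

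At an adjusted p under 0.01, the numbers called higher and lower fell to 1 and 0 for related cytokines and receptors, 1 and 0 for JAK, STAT and SOCS genes, and 2 and 0 for type 1 genes. There were 0 lower regulators of the IL-12 and IL-23 genes, 2 lower type 17 and 22 genes and 0 higher IL-22-induced genes. With library size alone, the lower calls became 0 for related cytokines and receptors, 0 for JAK, STAT and SOCS genes, 0 for regulators and 2 for type 17 and 22 genes, and the higher calls 4 for JAK, STAT and SOCS genes, 6 for regulators and 5 for IL-22-induced genes. DESeq2 called 4 regulators and 7 IL-22-induced genes higher, and filterByExpr and limma voom 4 IL-22-induced genes each. With a library left out, related cytokines and receptors had 1 to 4 lower calls, JAK, STAT and SOCS genes 0 to 1 lower, regulators 2 to 4 higher (4 without ft/ft replicate 2), type 1 genes 2 to 4 higher and 0 to 1 lower, and IL-22-induced genes 0 to 5 higher. The causes were not tested. Counts were at most 13 in any library for *Il12a*, *Il12b* and *Ifng*.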
